A study of Mus musculus with 4 samples.

Results

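The cadherins and protocadherins were followed in the cerebral cortex of adult male mice labelled as lacking Ndrg2 and of males labelled wild type. The genes, matched through the transcript accession of each probe, were those with a mouse symbol beginning with Pcdh, or made of Cdh and a number, with the endothelial gene Cdh5 left out. Of 92 such genes in the reference table, 68 had a probe on the array, and 60 of these had a kept probe, out of 15759 genes with one. Keeping a probe required 1 of its channels to be marked well above background by the scanner software on every array. The 60 genes had 76 kept probes, of 86 on the array and of 27664 kept probes in all. They comprised 8 probes of the clustered alpha protocadherins, 21 of the clustered beta, 5 of the clustered gamma, 20 of the non-clustered protocadherins and 22 of the cadherins.

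Each of the 4 dual-colour Agilent arrays carried 1 sample labelled Ndrg2-/- in red (Cy5) and 1 sample labelled wild type in green (Cy3). All animals were males 3 months old on the C57BL/6N background, and the labels do not describe the deleted allele. No pair of samples exchanged dyes, so genotype and dye cannot be told apart on these arrays. The labels do not say whether the samples came from separate mice or from pools, so p-values measure only the spread between these samples. Precision is limited by having only 4 arrays. In bulk cortex, fewer cells of a type and less RNA per cell cannot be told apart.

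Cadherins are calcium-dependent adhesion proteins. Classical cadherins bind their own kind on the neighbouring cell and are tied to actin through catenins, and in the brain they help to sort neurons and to build synapses. The clustered protocadherins lie in 3 adjoining gene clusters, and each neuron switches on a few of their many promoters, which gives it a surface identity that its own branches use to avoid each other. The alpha and gamma genes each contribute a variable exon that is spliced to constant exons shared by the whole cluster, whereas the beta genes have no constant exons. The non-clustered protocadherins are scattered over the genome and act in axon growth and synapse formation, several of them through the actin-regulating WAVE complex.

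Array medians of the spot signal were 283 to 336 for the samples labelled Ndrg2-/- and 94 to 122 for the samples labelled wild type, over local backgrounds of 87 to 96 and 22 to 26. All ratios below are log2 of labelled Ndrg2-/- over labelled wild type, given as the mean ± SD over 4 arrays, and a probe was called when its adjusted p in limma, a linear model fitted over all kept probes with Benjamini-Hochberg adjustment, was under 0.05. The labels were checked on the targeted gene. The Ndrg2 probe (NM_013864) had normalised log2 intensities of 15.09, 15.06, 15.26 and 15.34 in the samples labelled Ndrg2-/-, against 14.98, 14.69, 14.85 and 14.95 in the samples labelled wild type. It was thus not lower in the samples labelled Ndrg2-/-, with a ratio of 0.32 ± 0.14 (adjusted p 0.0173 in limma), and flipping the signs of its array values in every way gave an exact two-sided p of 0.125, the smallest possible with 4 arrays. A probe outside the deleted part would check nothing, so every direction below rests on the labels alone. Of 15 lists of cell type and region markers, the meningeal list stood out by count, with 12 of its 13 genes higher. Of 107 marker genes tested in all lists, 24 were higher, 12 of them meningeal, and 3 were lower. Over all genes, 9.12% were higher and 5.84% lower.

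Of the 76 probes, 7 were called. Pcdhb10, Pcdh17 and Cdh11 were higher in the samples labelled Ndrg2-/-, and Pcdhac2, Pcdh20, Cdh9 and Cdh20 were lower. That is 9.21% of the members, beside 12.9% of all kept probes (7.41% higher and 5.54% lower). With each gene represented by its brightest probe, 6 of 60 genes were called, 3 higher and 3 lower, beside 15% of 15759 genes (9.12% higher and 5.84% lower). No member reached 1.5 fold in 1 direction on all 4 arrays, and none did so by its mean, beside 0.0868% and 0.224% of all kept probes. Median centring without loess put Pcdhga9 (0.77) and Pcdh17 (0.66) past that size, while moving the median of all kept probes to 0.22. Call rates varied with brightness: 46 of the member probes lay in the dimmer 50% of kept probes, where 7.8% of all probes and 4 of the members were called. At an unadjusted p under 0.05 there were 17 members, beside 31.7% of all kept probes.

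For the 69 members that were not called, a miss does not show equality, and the intervals bound the ratio as processed here. The 95% interval of every one of the 76 ratios lay within 1.5 fold in either direction, beside 98.7% of all kept probes. The lowest bound over all members was -0.46 for Cdh9 and the highest 0.40 for Pcdh17, and the bound farthest from 0 corresponds to 1.38 fold. The median half-width of the intervals was 0.12. These bounds hold for ratios made with an offset of 50, which draws the ratios of dim probes towards 0. They do not bound the fold of the transcript. With the scanner software's processed signals, the dim Pcdhgb1 stood at 0.28 against 0.10 here, while the bright Pcdhga9 probe stood at 0.16 against 0.20. The dim Pcdhb5 changed sign, to 0.13 from -0.12 here. Processed signals also differ in background and dye normalisation, so the part of the offset in these values was not tested. When 1 replicate was left out, 0, 2, 2 and 6 member probes were called without replicate 1, 2, 3 and 4 in turn. A fit to fewer arrays also has less power, so the part of any single array in the lost calls was not tested. Without replicate 1, 969 of all kept probes were still called, and 646, 1169 and 2385 without replicates 2, 3 and 4.

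**Figure D1:**
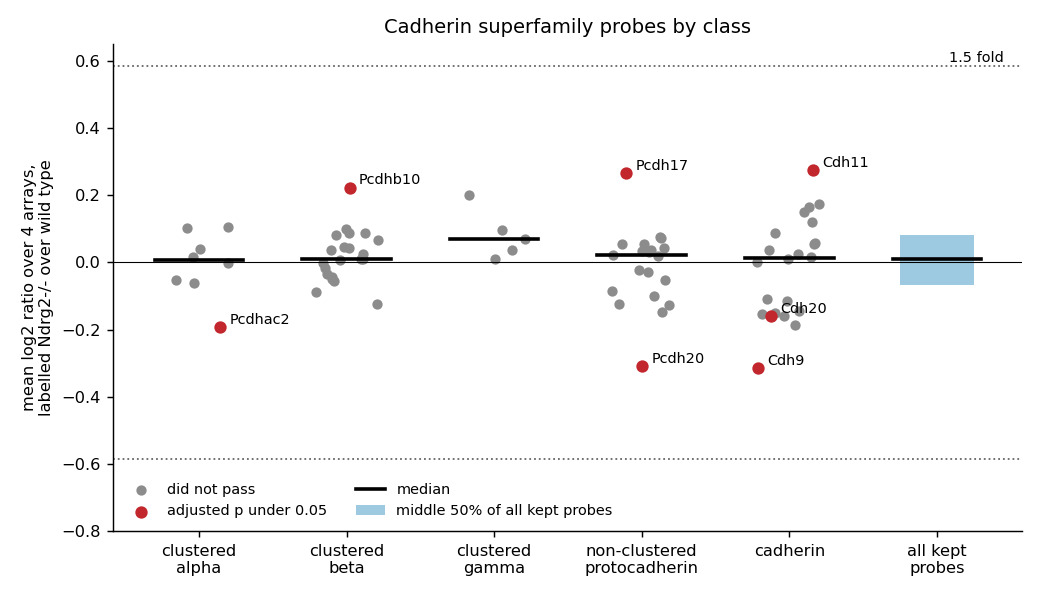
Mean log2 ratio of each member probe over 4 arrays (labelled Ndrg2-/- over labelled wild type, vertical axis) in the 5 classes, with the middle 50% of all kept probes at the right. Black lines are medians, red points are the 7 probes with an adjusted p under 0.05, and all 76 points lie between -0.31 and 0.27, inside the dotted lines at 1.5 fold.

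The stretches of DNA just upstream of the 3 called members whose channel values did not overlap between the groups are shown for reference, because transcript levels depend in part on promoters. Of the 68 genes on the array, 22 had an entry in the RefSeq promoter table used here (build GRCm38.p6). The 250 bases before the start site are given 5′ to 3′ on the gene's own strand for Pcdh17 (chr14:84443313-84443562, plus strand), Pcdh20 (chr14:88471397-88471646, minus strand) and Cdh9 (chr15:16728665-16728914, plus strand). Capitals mark CCAAT or its reverse complement ATTGG, the letters of the CCAAT box, a common promoter element.
Pcdh17: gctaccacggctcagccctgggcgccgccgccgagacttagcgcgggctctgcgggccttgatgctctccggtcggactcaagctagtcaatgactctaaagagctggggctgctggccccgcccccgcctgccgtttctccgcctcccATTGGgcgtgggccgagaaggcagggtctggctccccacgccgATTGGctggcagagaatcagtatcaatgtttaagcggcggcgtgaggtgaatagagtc
Pcdh20: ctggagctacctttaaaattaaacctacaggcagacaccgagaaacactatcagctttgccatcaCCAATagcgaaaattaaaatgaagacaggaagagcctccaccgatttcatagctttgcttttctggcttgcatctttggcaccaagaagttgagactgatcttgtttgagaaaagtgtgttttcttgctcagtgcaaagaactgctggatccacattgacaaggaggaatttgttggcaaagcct
Cdh9: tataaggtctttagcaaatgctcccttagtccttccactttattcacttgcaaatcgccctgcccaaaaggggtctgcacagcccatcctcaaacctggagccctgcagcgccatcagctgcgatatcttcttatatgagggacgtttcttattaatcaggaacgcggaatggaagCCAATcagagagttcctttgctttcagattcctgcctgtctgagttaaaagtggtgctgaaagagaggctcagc
The Pcdh17 stretch held 2 such matches and 21 CpG dinucleotides, the Pcdh20 stretch 1 match and 3 CpG, and the Cdh9 stretch 1 match and 6 CpG. In the full promoter windows of the table, the letters occurred on either strand in 8 of 9 non-clustered protocadherin genes and 7 of 13 cadherin genes, beside 37.9% of all 27025 genes. The median number of CpG per window was 18 for the non-clustered protocadherins and 9 for the cadherins, beside 7 for all genes. These are matches of letters, and no binding was measured.

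Among the non-clustered protocadherins, Pcdh17 was higher and Pcdh20 lower. Pcdh17 binds the WAVE complex and acts in axon growth and at synapses. Its normalised log2 intensity was 12.14, 12.18, 12.31 and 12.20 in the samples labelled Ndrg2-/-, against 11.82, 12.11, 11.98 and 11.85 in the samples labelled wild type. The groups did not overlap, and replicate 2 gave the smallest gap. The ratio was 0.27 ± 0.13 (adjusted p 0.0251 in limma), but omitting replicate 1, 3 or 4 put it past the threshold (adjusted p 0.0659 to 0.0932), as did fitting the channels unpaired (0.0668).

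Pcdh20, which in mouse sensory cortex marks layer 4 neurons, went the other way. It stood at 10.13, 10.14, 10.07 and 9.86 in the samples labelled Ndrg2-/-, against 10.56, 10.28, 10.43 and 10.18 in the samples labelled wild type. Every value of the samples labelled Ndrg2-/- lay below every value of the samples labelled wild type. The ratio was -0.31 ± 0.12 (adjusted p 0.0154 in limma), and the adjusted p was 0.0562 when replicate 1 was omitted, 0.0597 when replicate 3 was omitted and 0.0865 in the unpaired fit. Under median centring without loess, which moved the median of all kept probes to 0.22, Pcdh20 stood at 0.02. Rorb, a marker of the same cortical layer, was higher, at 0.25 ± 0.13 (adjusted p 0.0288 in limma), and the excitatory neuron list had 2 of 9 genes higher, none lower and a median of 0.16. Their part in the ratio of Pcdh20 was not tested.

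Both genes lie on chromosome 14, which also carries Ndrg2, in a run of 4 protocadherins, Pcdh8, Pcdh17, Pcdh20 and Pcdh9. Counted along the chromosome in tested genes, these were the 238th, 241st, 244th and 246th from Ndrg2. Pcdh8, an activity-induced protocadherin that in rat neurons acts on the uptake of N-cadherin from the surface, had the smallest spread over arrays of the 4. It stood at 10.49, 10.50, 10.47 and 10.46 in the samples labelled Ndrg2-/-, against 10.61, 10.62, 10.57 and 10.53 in the samples labelled wild type. The groups did not overlap, yet the ratio was small, at -0.10 ± 0.02, and did not pass (adjusted p 0.116 in limma). Pcdh9, a delta protocadherin, had 3 probes at 0.08 ± 0.15, 0.07 ± 0.10 and 0.05 ± 0.15, none of them called. From Pcdh8 to Pcdh9 there were 9 tested genes, of which 3 were called, 1 higher and 2 lower, and on the whole chromosome 132 of 543 tested genes were called (24.3%), beside 15% of all genes. Cdh24, the member nearest to Ndrg2 on that chromosome, was not kept, being well above background in the samples labelled Ndrg2-/- on 2 arrays and in the samples labelled wild type on 3.

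The other non-clustered protocadherins were not called. Pcdh10, which guides axon growth, had 2 probes, both below 0 (-0.09 ± 0.09 and -0.13 ± 0.14). Pcdh7 had probes at -0.15 ± 0.16, -0.12 ± 0.13 and 0.02 ± 0.10, and those below 0 matched the same transcript, NM_001122758, while the probe above 0 matched another, NM_018764. Pcdh19, whose human counterpart is mutated in an epilepsy of girls, was at 0.04 ± 0.09, and Pcdh1 at 0.03 ± 0.05. Pcdh15, known for the tip links of hair cells in the ear, had 5 kept probes for several transcripts, all between -0.05 and 0.04. Pcdh18 stood at 0.04 ± 0.14 and Pcdh12, a protocadherin of vascular endothelium, at 0.05 ± 0.30, the widest spread of this class. Over the class the median was 0.02, with 11 of 20 probes above 0, beside 0.01 over all kept probes.

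**Figure D2:**
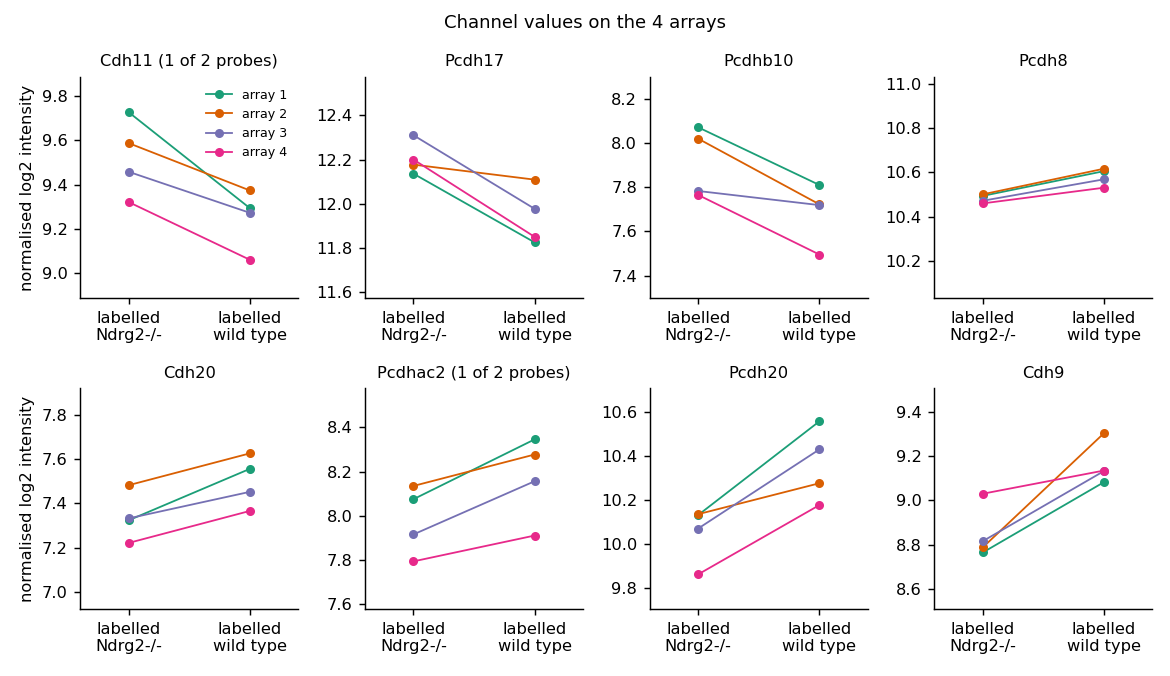
Normalised log2 intensity of the 7 called probes and of Pcdh8 in the samples labelled Ndrg2-/- (left of each panel) and labelled wild type (right), with 1 line per array and a vertical span of 1 log2 unit in every panel. Lines slope down towards wild type for Cdh11, Pcdh17 and Pcdhb10 and up for the other genes, and the groups do not overlap for Pcdh17, Pcdh8, Pcdh20 and Cdh9.

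Among the cadherins, Cdh9 had the lowest ratio of all members. Cdh9 is a type II classical cadherin that in mouse hippocampus is needed at synapses between dentate granule cells and CA3 pyramidal cells. Its normalised log2 intensity was 8.76, 8.79, 8.82 and 9.03 in the samples labelled Ndrg2-/-, against 9.08, 9.30, 9.13 and 9.14 in the samples labelled wild type. The groups did not overlap, and replicate 4 gave the smallest gap. The ratio was -0.31 ± 0.17 (adjusted p 0.0240 in limma), with adjusted p of 0.0742 to 0.0860 when replicate 1, 2 or 3 was omitted and 0.402 under median centring (-0.07). In the unpaired fit of separate channels Cdh9 kept its call (adjusted p 0.0405), and it was the 1 member probe called there.

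Of 5 hippocampal marker genes tested, 2 were also lower and none higher. They were Wfs1 at -0.27 ± 0.09 (adjusted p 0.0152 in limma) and Lct at -0.25 ± 0.16 (adjusted p 0.0418 in limma). The others did not pass, and the dentate granule cell marker Prox1 was at 0.11 ± 0.07, above 0 on every array, with Fibcd1 at -0.01 ± 0.11 and Calb1 at -0.07 ± 0.11. The list median was -0.07. The summed intensity of the list ran from 6226 to 7175 in the samples labelled Ndrg2-/- and from 7656 to 8900 in the samples labelled wild type. Of the listed markers only Dsp was not well above background. The part of hippocampal tissue in the Cdh9 ratio was not tested.

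Cdh11, a type II cadherin typical of mesenchymal cells, had the highest ratio of all members. Its brighter probe stood at 9.73, 9.59, 9.46 and 9.32 in the samples labelled Ndrg2-/-, against 9.29, 9.37, 9.27 and 9.06 in the samples labelled wild type. The difference had 1 sign on all arrays, but the groups overlapped. The ratio was 0.27 ± 0.11 (adjusted p 0.0186 in limma), and its call did not hold when replicate 1 (adjusted p 0.0555) or replicate 2 (0.0682) was omitted, or in the unpaired fit (0.131). A dimmer probe of the same transcript was at 0.12 ± 0.31 and was not called (adjusted p 0.458 in limma), with array values of 0.44, 0.09, 0.23 and -0.28. The probes differed by 0.15 ± 0.27 over the arrays (exact two-sided sign-flip p = 0.5).

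Meningeal marker genes were higher on the same arrays. Of 13 listed, 12 were called higher, among them Bmp6 (0.61 ± 0.08), Lum (0.59 ± 0.11) and Mgp (0.52 ± 0.41), and the array medians of the list were 0.55, 0.45, 0.25 and 0.67. Cdh11 had 0.43, 0.21, 0.19 and 0.26 on these arrays. The summed intensity of the list ran from 13284 to 22065 in the samples labelled Ndrg2-/- and from 9448 to 17562 in the samples labelled wild type, ranges that overlap, and all 13 markers passed the filter. The part of meningeal cells in the Cdh11 ratio was not tested.

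Cdh20, another type II cadherin, was also lower. It stood at 7.32, 7.48, 7.33 and 7.22 in the samples labelled Ndrg2-/-, against 7.56, 7.63, 7.45 and 7.37 in the samples labelled wild type. The samples overlapped between groups, though every array gave the same sign. The ratio was -0.16 ± 0.05 (adjusted p 0.0398 in limma), but omitting any single replicate gave an adjusted p of 0.0716 to 0.128, and it was 0.0524 without the filter on dim probes, 0.0523 with an intensity trend, 0.0502 with processed signals (where the ratio was larger in size, at -0.32) and 0.249 in the unpaired fit.

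Cdh8, a type II cadherin of particular cortical layers and of thalamocortical wiring, came close to the threshold with both of its probes. They matched different transcripts, NM_007667 at -0.18 ± 0.11 (adjusted p 0.0531 in limma) and NM_001039154 at -0.16 ± 0.09 (adjusted p 0.0645 in limma). The second probe was near background, with 95.1% of kept probes brighter. It was well above background on 3 arrays in the samples labelled Ndrg2-/- and on 4 in the samples labelled wild type. When the probes of a gene were averaged before the fit, Cdh8 passed at -0.17 (adjusted p 0.0340 in limma) and Cdh11 did not, so that 6 genes were again called. Cdh18 stood at -0.14 ± 0.11 (adjusted p 0.0991) and Cdh10 at -0.15 ± 0.20 (adjusted p 0.195 in limma), both without a call. Cdh12, Cdh6, Cdh7 and Cdh22 lay between 0.01 and 0.06, and Cdh19, typical of glial cells of nerves, was at 0.15 ± 0.22. Over 13 type II probes, 1 was higher, 2 were lower and 10 did not pass, with a median of 0.01.

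None of 6 type I cadherin probes was called by limma, and 1 had an unadjusted p under 0.05. Cdh2, the N-cadherin of synapses, had 2 probes at 0.09 ± 0.05 and 0.02 ± 0.07, with intervals of 0.00 to 0.18 and -0.08 to 0.12. Cdh4, or R-cadherin, had probes of opposite sign, at 0.17 ± 0.14 and -0.11 ± 0.12, the widest gap between probes of any member. Cdh15, the cadherin of muscle, was at -0.15 ± 0.28, and the epithelial cadherin Cdh1 at 0.04 ± 0.17. Among the atypical cadherins, the lipid-anchored Cdh13 was at -0.11 ± 0.10, Cdh26 at 0.17 ± 0.10 (adjusted p 0.0584 in limma) and Cdh16 at 0.00 ± 0.17, well above background on 4 arrays in the samples labelled Ndrg2-/- and on 3 in the samples labelled wild type. Cdh3, Cdh17 and Cdh23 had no probe well above background on any array.

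The clustered beta protocadherins gave the most complete view of a cluster, with all 22 genes on the array and 21 kept. Their median ratio was 0.01, with 13 probes above 0, and they ran from -0.12 to 0.22. Pcdhb10 was the only one called among them. It stood at 8.07, 8.02, 7.78 and 7.76 in the samples labelled Ndrg2-/-, against 7.81, 7.72, 7.72 and 7.50 in the samples labelled wild type. The groups overlapped, and replicate 3 gave the smallest gap. The ratio was 0.22 ± 0.11 (adjusted p 0.0302 in limma), but the adjusted p was 0.0738 to 0.122 when replicate 1, 2 or 4 was omitted, 0.0503 with the processed signals of the scanner (ratio 0.34) and 0.191 in the unpaired fit.

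Its neighbours in the cluster were not called. Pcdhb9 on one side was at -0.02 ± 0.09 and Pcdhb11 on the other at -0.09 ± 0.06, the second being well above background on 2 arrays in the samples labelled Ndrg2-/- and on 4 in the samples labelled wild type. Pcdhb8, at -0.04 ± 0.16, was so on 3 and 4 arrays. Pcdhb5 had the lowest ratio of the class, at -0.12 ± 0.19, without a call (adjusted p 0.277 in limma), and its array values were -0.38, 0.09, -0.14 and -0.06. Its sign depended on the processing, with 0.13 for the processed signals and 0.01 with no background correction. The sign of the beta ratios differed between arrays. On array 1, 15 of the 21 probes lay below 0, while on arrays 2, 3 and 4 it was 9, 8 and 6. Their array medians were -0.05, 0.01, 0.06 and 0.06, beside 0.01 on every array over all kept probes. The beta genes are close copies of each other, and the array files give no probe sequences, so signal shared between copies was not tested.

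**Figure D3:**
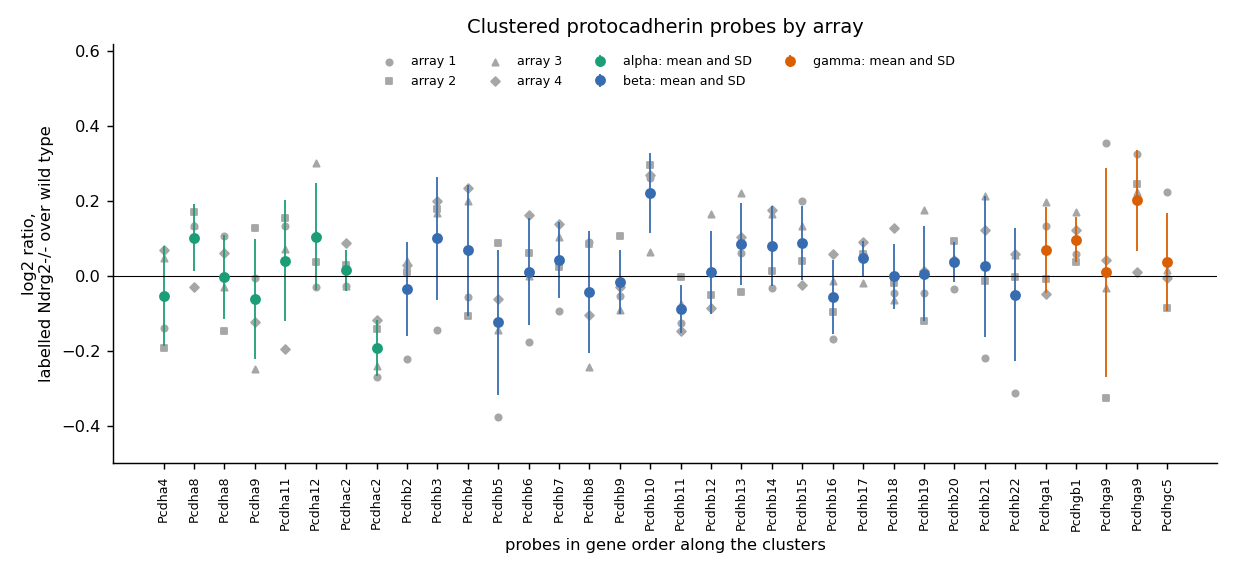
Log2 ratio of the 34 clustered protocadherin probes in gene order along the alpha, beta and gamma clusters, with grey symbols for the 4 arrays and coloured points with bars for the mean and SD over arrays. Pcdhb10 at 0.22 stands above its neighbours, and Pcdhac2 appears with probes at 0.02 and -0.19.

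Of the alpha cluster, 7 of 14 genes were on the array and 6 were kept. Pcdhac2, a C-type isoform that serotonin neurons of the mouse need for the even spread of their axons, had probes that disagreed. The called probe stood at 8.07, 8.13, 7.92 and 7.79 in the samples labelled Ndrg2-/-, against 8.35, 8.28, 8.16 and 7.91 in the samples labelled wild type. The difference had the same sign on every array, though the groups overlapped. The ratio was -0.19 ± 0.07 (adjusted p 0.0309 in limma), but omitting replicate 1, 2 or 3 raised the adjusted p to 0.0908 to 0.115, and it was 0.159 under median centring (-0.08) and 0.321 in the unpaired fit.

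The brighter probe of Pcdhac2, for the same transcript NM_001003672, was at 0.02 ± 0.05 and was not called (adjusted p 0.831 in limma). The called probe lay 0.24, 0.17, 0.21 and 0.20 below it on arrays 1 to 4, a mean difference of -0.21 ± 0.03. An exact two-sided sign-flip test of that difference gave p = 0.125, the smallest that 4 arrays allow. The files do not give the place of a probe in its transcript, so whether either lies in the constant exons that all alpha isoforms share was not tested. The other alpha genes were not called, Pcdha12 at 0.10 ± 0.14, Pcdha8 with probes at 0.10 ± 0.09 and 0.00 ± 0.11, Pcdha11 at 0.04 ± 0.16, Pcdha4 at -0.05 ± 0.13 and Pcdha9 at -0.06 ± 0.16. Over the 8 probes the median was 0.01.

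The gamma cluster was the least covered, with 6 of 22 genes on the array and 4 kept. Its 5 probes had means above 0, as did 53.5% of all kept probes, and none was called by limma, while 2 had an unadjusted p under 0.05. The gamma median was 0.07, but it was 0.00980 with the processed signals and -0.000563 with no background correction. Pcdhga9 had 2 probes for the same transcript. The brighter stood at 15.75, 15.67, 15.64 and 15.53 in the samples labelled Ndrg2-/-, against 15.42, 15.43, 15.42 and 15.51 in the samples labelled wild type. The groups did not overlap, and the ratio was 0.20 ± 0.13 (adjusted p 0.0546 in limma). It passed without replicate 4 (0.27, adjusted p 0.0280) and with an intensity trend (adjusted p 0.0258 in limma). The dimmer probe was at 0.01 ± 0.28, with array values of 0.35, -0.32, -0.03 and 0.04, the least repeatable of the gamma probes. Its mean intensity was 11.2 in the samples labelled Ndrg2-/- and 11.1 in those labelled wild type, beside 15.6 and 15.4 for the brighter probe. Whether either probe lies in the constant exons that all gamma isoforms share was not tested, so the brighter signal may not be that of Pcdhga9 alone. Pcdhgb1 was at 0.10 ± 0.06 (adjusted p 0.153 in limma), but at 0.28 it passed with the processed signals (adjusted p 0.0345), and at -0.16 it was called lower under median centring (adjusted p 0.0145). Pcdhga1 was at 0.07 ± 0.12 and Pcdhgc5 at 0.04 ± 0.13.

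Probes of 1 gene were also set side by side. Those of Pcdh7, Pcdh10, Pcdh15 and Cdh8 matched different transcripts, so they do not repeat 1 measurement. Of 11 genes with several kept probes, 6 had all means of 1 sign and 5 had both signs. The distance between the highest and the lowest probe of a gene ran from 0.02 for Pcdh9 and 0.03 for Cdh8 to 0.28 for Cdh4. The SD of a member probe over arrays had a median of 0.12, beside 0.09 over all kept probes. That SD describes single array values, whereas the distances lie between means over 4 arrays, so the 2 are not on 1 scale. Over all classes, 20 of 76 members had 1 sign on all 4 arrays, beside 39.5% of all kept probes. By class it was 10 of 22 cadherin probes (45.5%), 40% of gamma, 25% of non-clustered, 12.5% of alpha and 9.52% of beta probes. The channel values did not overlap for 7 members, 2 higher and 5 lower, beside 13.5% of all kept probes. These were Pcdh17 and Pcdhga9 on the higher side and Pcdh20, Cdh9, Cdh8, Pcdh8 and 1 probe of Pcdh7 on the lower side, of which only Pcdh17, Pcdh20 and Cdh9 were also called.

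**Figure D4:**
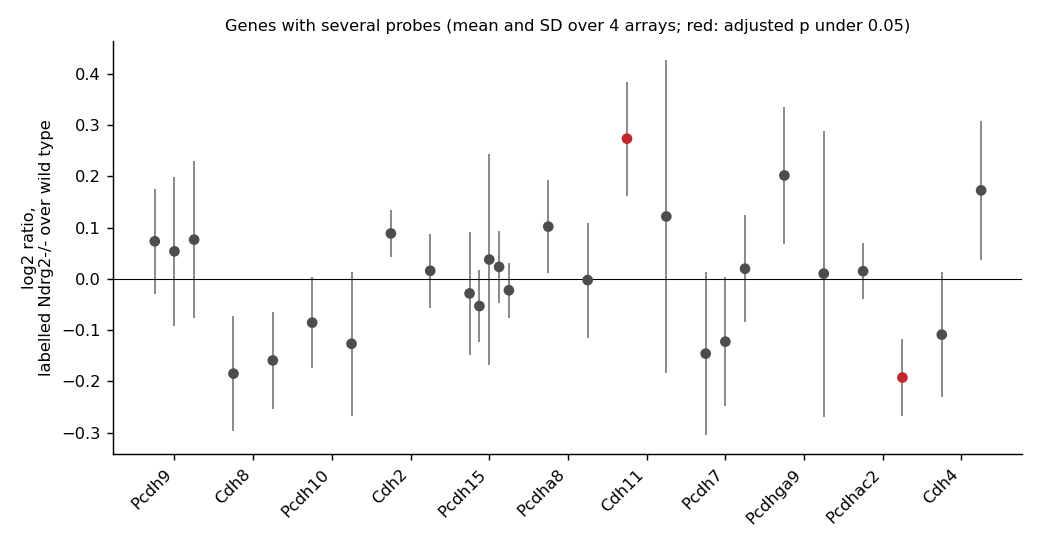
Log2 ratio of each probe of the 11 genes with several kept probes, as the mean with bars for the SD over 4 arrays, ordered by the distance between a gene's probes. Red points are called probes. The probes of Pcdh9 and Cdh8 lie within 0.03 of each other, and those of Cdh4 lie on opposite sides of 0.

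The proteins that work with cadherins were read from 5 lists. Of 72 genes tested, 12 were called (16.7%), 6 higher and 6 lower, beside 15% of all genes. Among 13 catenin and adherens junction genes, 2 were higher and 2 lower, with a median of -0.03. The higher ones were Ctnnb1, the beta-catenin that binds the tails of classical cadherins (0.26 ± 0.09, adjusted p 0.0158 in limma), and Ctnna1, the alpha-catenin that links it to actin (0.26 ± 0.11). The lower ones were Nectin3, an adhesion receptor of adherens junctions (-0.21 ± 0.05), and Pkp4 (-0.18 ± 0.03), the second being named after its values were seen.

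Of 18 genes of chromatin and cohesin at the clustered loci, Stag2, a cohesin subunit (0.24 ± 0.07), and Smchd1, a chromatin repressor of the clusters (0.22 ± 0.08), were higher and Mau2, a cohesin loader (-0.16 ± 0.04), was lower. Their list median was 0.07. Ctcf, which loops the cluster promoters to their enhancers, is in this list and was not called (adjusted p 0.0826 in limma). Of 19 intracellular partners of protocadherins, Taok2 (0.22 ± 0.05) and the adhesion kinase gene Ptk2 (0.21 ± 0.06) were higher and the kinase gene Fyn (-0.24 ± 0.14) was lower, with a median of 0.01. Of 15 other genes of the cadherin superfamily, Clstn3, a synaptic calsyntenin (-0.23 ± 0.09), and Fat3 (-0.17 ± 0.07) were lower and none was higher, with a median of 0.04. Cdhr1, named after its values were seen, had the highest mean of this list, at 1.06 ± 1.26, and was not called (adjusted p 0.119 in limma), with 0.58, -0.48, 2.25 and 1.89 on arrays 1 to 4. None of 7 tested genes of cadherin cleavage was called by limma (adjusted p 0.251 to 0.830), none had an unadjusted p under 0.05, and their median was 0.02. The count over all 5 lists was 0, 1, 1 and 11 without replicates 2, 1, 3 and 4 in turn.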

How the data were processed

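The members, the lists and the alternatives were chosen with earlier results of these data known. RNA (200 ng per sample, per the labels' protocols) was hybridised to arrays on 1 slide read in 1 scan. Spots were quantified with Agilent Feature Extraction, for which the file headers give version 11.0.1.1 and the submitters' processing notes 10.7.3.1. The deposited intensity is the median pixel signal of a spot with its local background, per the file headers, and the processed signal is background-subtracted and dye-normalized within the array. The deposited log10 ratio is that of red over green processed signal, per the file headers. The log2 values deposited as a matrix equal the same ratio, with column medians of 0.04, 0.03, -0.04 and -0.04.

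Ratios came from these intensities (R 4.3.3, with limma 3.58.1 and the data.table package, version 1.17.8). Normexp (offset 50) removed the background, followed by loess within arrays that gave no weight to 1377 control spots. The remaining 43020 spots of an array included outliers, 802 in all, which were dropped, and no saturated ones. Spots of a probe were averaged, which gave 39429 probes. Accessions were matched to RefSeq genes of assembly GRCm38.p6 (27427 probes with a symbol), while the array annotation uses mm9. Positions therefore served only for gene order, for the rule on members within 10 Mb of Ndrg2 and for the promoter stretches. An intercept-only model with eBayes (residual degrees of freedom 3, prior 4.47) was fitted to the 4 ratios. Channel intensities were scaled between arrays by Aquantile for display and for the unpaired fit. The ratio within an array pairs samples of 1 replicate number, so the block is part of the design.

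Named genes were Ndrg2, up to 10 called genes per class by size of ratio (or the 2 largest ratios where fewer than 2 were called), members within 10 Mb of Ndrg2, members whose called probe had another of opposite sign, members short of background in 1 channel, and up to 3 called genes per list. All other members named, Pcdh8 among them, were chosen after their values were seen. Cdh8 met the rule on background through its dimmer probe, and its brighter probe was singled out after its values were seen.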

Additional observations from a re-analysis of the deposited data

Results flagged for a closer look

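Among 19 values examined, each over 4 arrays, 3 had 1 array far from the others, and chance does this in about 1 in 20. Pcdh17 had a log2 ratio of 0.0677 on array 2, with the other arrays between 0.31 and 0.35. Pcdhb10 had 0.0639 on array 3, with the others between 0.26 and 0.30. Ndrg2 had 0.11 on array 1, with the others between 0.37 and 0.40. In each case the distant array was the one nearest to 0 and had the same sign as the others.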

How the results depend on the processing

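The ratio within an array holds the replicate pairing. With no replicate block (separate channels fitted unpaired), 962 of all probes, 1 member probe, 1 member gene and 4 genes of the pathway lists were called, and Ndrg2 kept its ratio of 0.32 at an adjusted p of 0.0600. Leaving out 1 replicate at a time gave 646 to 2385 calls over all probes, 0 to 6 over member probes, 0 to 5 over member genes and 0 to 11 over the pathway lists, and Ndrg2 ran from 0.29 to 0.39 with calls lost without replicates 2 and 3 (adjusted p 0.0795 and 0.0651). The class medians then ran from -0.0160 to 0.0180 for alpha, 0.00 to 0.04 for beta, 0.04 to 0.12 for gamma, -0.00870 to 0.0182 for the non-clustered genes and -0.01 to 0.01 for cadherins. Median centring without loess called 21960 probes, 57 member probes, 45 member genes and 64 list genes, with class medians of 0.18 for beta, -0.0574 for gamma, 0.20 for the non-clustered genes and 0.22 for cadherins, as it moved the median of all probes to 0.22. It turned Pcdh20 to 0.0201 (adjusted p 0.755) and Pcdhgb1 to -0.16 (adjusted p 0.0145). It gave larger ratios, all called, for Pcdhga9 (0.77), Pcdh17 (0.66), Cdh11 (0.55), the brighter Pcdhac2 probe (0.43), Pcdha8 (0.42), Pcdha12 (0.34) and Pcdhb5 (-0.43), and the first pair passed 1.5 fold. The scanner software's processed signals and the deposited log2 table, which hold the same ratios, both called 2192 probes and 5 list genes, with Ndrg2 at 0.26 (adjusted p 0.0663) and medians of -0.0267 for alpha and -0.0549 for the non-clustered genes. The gamma median was then 0.00980, Pcdhgb1 passed at 0.28 (adjusted p 0.0345) and Pcdhb5 stood at 0.13. With no background correction the non-clustered median was -0.0191 and the gamma median -0.000563. The cause of these shifts was not tested. Filters on dim probes and an intensity trend gave 6 to 8 member probes called. For dim members, signal near background limits the precision.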

Other observations

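Cdh1 and Pcdhb3 were each printed as 10 spots per array, which gives the spread between spots of 1 array. For Cdh1, 9 or 10 spots were used on an array, and their log2 ratios had SDs of 0.06 to 0.12. The array means were 0.08, 0.07, -0.20 and 0.20, with an SD over arrays of 0.17. For Pcdhb3, the SDs over spots were 0.06 to 0.07, and the array means were -0.15, 0.18, 0.17 and 0.20, with an SD over arrays of 0.16. The standard error of an array mean was at most 0.04 for Cdh1 and 0.02 for Pcdhb3. Arrays also differ in their samples, so these values do not divide the spread between arrays into its sources. The lone negative array was array 3 for Cdh1 and array 1 for Pcdhb3.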
